A study of Mus musculus with 14 samples.

Results

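Genes that mark B cells and plasma cells were measured on 14 microarrays prepared from cells collected as lymphatic endothelium of mouse lymph nodes. The list held 31 genes, of 34741 measured: 25 are used as B cell markers and 6 as plasma cell markers. They were taken by symbol, with the older name Faim3 accepted for Fcmr and Igj standing for the gene now called Jchain. In all, 30 members carried their symbol or such a name in the arrays' annotation, and Mzb1 was found through its RefSeq accession. Where several probes carried a member's name, which was so for 9 members, the probe with the highest mean signal over the 14 arrays stood for it.

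The arrays compared lymphatic endothelial cells of the medullary sinus with those of the subcapsular sinus of C57Bl/6 lymph nodes. Medullary cells obtained by fluorescence-activated cell sorting (FACS) gave 2 arrays and subcapsular FACS cells gave 2, each from 1200 cells; medullary cells cut out by laser-capture microdissection (LCM) gave 5 arrays and subcapsular LCM cells gave 5, each from 50 cells. LCM cells were picked as CD31-labelled cells from frozen sections that were also stained for F4/80, and came from inguinal, axillary and brachial nodes. FACS cells came from digested nodes of more sites, mesenteric and cervical ones included, and were sorted with a lineage antibody mix that included CD45R/B220, the form of CD45 on B cells, together with antibodies to CD73 and podoplanin; which gate defined each sinus is not stated in the labels. All RNA was amplified with the SuperAmp method and labelled with Cy3. The labels call the samples biological replicates, give no age or sex and do not tie them to animals or to pools of animals, so p-values here measure only the spread between these samples.

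B cells recognise antigen through a surface immunoglobulin that signals by way of the paired chains Cd79a and Cd79b, and they gather in follicles of the lymph node cortex, beneath the subcapsular sinus. Activated B cells can become plasma cells, which lose much of the B cell programme and secrete antibody, and these settle largely in the medullary cords beside the medullary sinuses. Both sinuses therefore border cells that carry such markers, and neither marker class belongs to lymphatic endothelium as it is usually defined.

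The sequences of 5 probes, from the arrays' own annotation, show what was measured for 4 members picked by hand. Each probe shown holds a forward reading frame without a stop codon, and the dimmer probe of Bank1 was left out by choice. Blk was far apart between the sorted sinuses, Bank1 was apart between the sinuses in LCM cells, Irf4 was among the plasma cell genes named in the comparison of isolations, and Pax5 was read by a brighter and a dimmer probe. All positions are on the mm9 build and all 5 probes are 60 bases long.
Blk (chr14:63997333-63998470, strand -, spanning a gap in the genome): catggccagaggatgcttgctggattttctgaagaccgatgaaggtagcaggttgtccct
Bank1 (chr3:135727078-135727137, strand -): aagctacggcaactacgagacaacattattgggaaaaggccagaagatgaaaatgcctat
Irf4 (chr13:30858532-30858591, strand +): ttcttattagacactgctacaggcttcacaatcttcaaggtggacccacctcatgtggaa
Pax5, brighter probe (chr4:44658421-44658480, strand -): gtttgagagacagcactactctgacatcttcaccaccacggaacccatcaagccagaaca
Pax5, dimmer probe (chr4:44550354-44582908, strand -, spanning a gap in the genome): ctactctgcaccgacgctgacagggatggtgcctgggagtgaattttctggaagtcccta

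RefSeq promoter windows were available for 26 of the 31 members, the exceptions being Ms4a1, Cd79b, Blk, Ikzf3 and Mzb1. They were searched over the 250 bases before the annotated start. The E box CAGGTG, a motif bound by the B cell factor E2A, was sought on either strand. It was found for 8 of 21 B cell and 2 of 5 plasma cell members with a window. Over the genome it was found for 5252 of 27025 genes, and in 17.2% of all 32851 windows. The ETS core GAGGAA, contained in sites of the B cell factors PU.1 and SpiB, was found for 9 of these B cell and 3 of these plasma cell members. It was found for 6986 of all 27025 genes, and in 23.3% of all windows. The octamer ATGCAAAT, bound by the products of Pou2f1 and Pou2f2, was found for Blnk and Vpreb3 alone among the members. It was found for 490 of all 27025 genes, and in 1.6% of all windows. The palindrome CCCNNGGG, the core of Ebf1 sites, was found for Bank1, Spib and Sdc1. It was found for 3629 of all 27025 genes, and in 11.8% of all windows. Of the 9 B cell members that later proved to lie lower on all 5 medullary than on all 5 subcapsular LCM arrays, 8 had a window and 4 of these held the E box. Their 250 bases before the start are given on GRCm38.p6, 5′ to 3′ along the gene, with the E box in capitals on whichever strand it lies; Ralgps2 has a second annotated start whose window lacks it. A match describes the letters only and is no evidence that the site was used in these cells.
Ralgps2 promoter (chr1:156939627-156939876, strand -): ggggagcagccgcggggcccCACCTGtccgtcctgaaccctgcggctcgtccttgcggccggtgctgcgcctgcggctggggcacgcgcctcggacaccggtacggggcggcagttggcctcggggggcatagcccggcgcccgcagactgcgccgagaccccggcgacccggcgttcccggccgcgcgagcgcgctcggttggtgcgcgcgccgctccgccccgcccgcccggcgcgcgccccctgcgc
Fcrla promoter (chr1:170927584-170927833, strand -): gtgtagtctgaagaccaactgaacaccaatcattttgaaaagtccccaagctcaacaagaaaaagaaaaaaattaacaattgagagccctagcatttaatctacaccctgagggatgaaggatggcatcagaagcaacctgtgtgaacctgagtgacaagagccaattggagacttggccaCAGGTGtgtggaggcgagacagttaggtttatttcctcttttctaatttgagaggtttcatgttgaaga
Bank1 promoter (chr3:136326067-136326316, strand -): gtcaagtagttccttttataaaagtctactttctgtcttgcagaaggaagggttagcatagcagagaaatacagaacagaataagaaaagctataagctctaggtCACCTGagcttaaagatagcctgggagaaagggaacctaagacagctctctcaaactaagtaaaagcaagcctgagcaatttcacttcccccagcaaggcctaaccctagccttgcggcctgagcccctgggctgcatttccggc
Cd79a promoter (chr7:24897247-24897496, strand +): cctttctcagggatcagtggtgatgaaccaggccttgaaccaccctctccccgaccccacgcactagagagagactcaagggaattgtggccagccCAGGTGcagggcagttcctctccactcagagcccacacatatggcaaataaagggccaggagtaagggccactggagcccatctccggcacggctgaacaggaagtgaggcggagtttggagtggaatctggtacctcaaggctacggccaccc

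A level below is the log2 of a probe's signal minus the 75th percentile of its array, so that 0 is a signal at that percentile; differences between groups are on the same log2 scale, and heights of different probes are not compared. Of 55681 probes, between 69.0% and 79.0% were well above background on the medullary FACS arrays, between 66.3% and 77.9% on the subcapsular FACS arrays, between 67.4% and 75.3% on the medullary LCM arrays and between 50.8% and 69.0% on the subcapsular LCM arrays. Of the 2 slides, slide 1 carried the first 3 medullary and all 5 subcapsular LCM samples, and every FACS sample shared slide 2 with medullary LCM replicates 4 and 5. Of the defining markers of lymphatic endothelium, Prox1, its lineage factor, was well above background on all 14 arrays. Lyve1, the hyaluronan receptor, was so on neither medullary FACS array, 1 of 2 subcapsular FACS arrays, 3 of 5 medullary LCM and 3 of 5 subcapsular LCM arrays. Flt4, the lymphatic growth factor receptor, was so on 1 of 2 medullary FACS, neither subcapsular FACS, 3 of 5 medullary LCM and 3 of 5 subcapsular LCM arrays, and Pdpn, which encodes podoplanin, on 2 of 2, 1 of 2, 4 of 5 and 1 of 5 arrays in the same order of groups. T cell and macrophage markers were present too; Cd3e and Csf1r were well above background on all 14 arrays.

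B cell signal was present throughout, and plasma cell signal was patchier. Among the B cell members, 17 of 25 were well above background on all 14 arrays, against 2 of 6 plasma cell members. Fewer cells of a type and less RNA per cell cannot be told apart in such samples. The summed linear level of the 25 B cell members, in units of the array's 75th percentile, ran from 71.6 to 165 in medullary FACS, from 303 to 476 in subcapsular FACS, from 161 to 294 in medullary LCM and from 370 to 1236 in subcapsular LCM samples. The medullary and subcapsular ranges did not overlap within either isolation. This was not particular to B cell members, since the sums of 15 housekeeping genes were apart too. Those ran from 212 to 292 in medullary and 540 to 592 in subcapsular FACS samples, and from 343 to 446 and 455 to 1489 in LCM samples. The sums of 17 T cell genes overlapped in LCM samples, at 63.0 to 80.0 and 60.7 to 285. For the 6 plasma cell members the sum ran from 7.89 to 13.9 in medullary FACS, from 39.0 to 48.0 in subcapsular FACS, from 5.68 to 18.4 in medullary LCM and from 6.92 to 27.5 in subcapsular LCM samples. Here the sinuses were apart in FACS samples and overlapped in LCM samples.

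**Figure D1:**
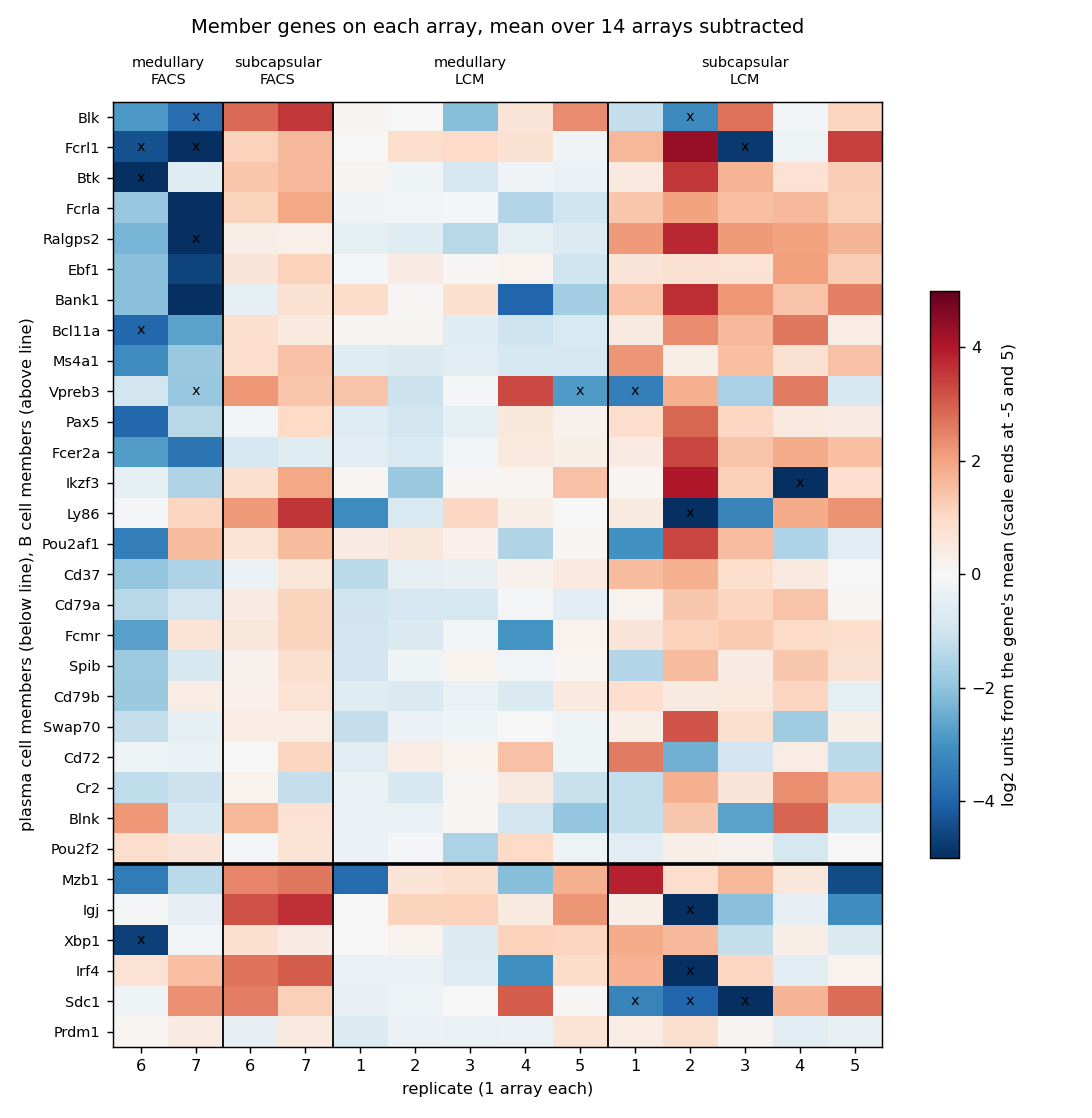
Each row is a member and each column an array; colour gives the log2 level minus that member's mean over the 14 arrays, and x marks values not well above background. Medullary FACS columns are mostly blue over the 25 B cell rows, subcapsular LCM columns mostly red, and the 6 plasma cell rows below the line are reddest in the subcapsular FACS columns.

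The order of the groups differed between the classes. Of the 25 B cell members, 16 had their highest group mean in subcapsular LCM cells, 8 in subcapsular FACS cells and 1, Pou2f2, in medullary FACS cells, while 21 had their lowest in medullary FACS cells. Of the 6 plasma cell members, 5 had their highest group mean in subcapsular FACS cells and 1, Prdm1, in medullary FACS cells. The lowest group mean was that of subcapsular LCM for Irf4, Sdc1 and Igj. For Irf4 this rested on replicate 2, at -5.38 and not well above background. By median, Irf4 was higher in subcapsular LCM, at 1.70, than in medullary LCM, at 1.18. Sdc1 was well above background on 2 of 5 subcapsular LCM arrays and Igj on 4 of 5. The median over the B cell members was 0.22 and 0.39 on the medullary FACS arrays, 2.38 and 3.24 on the subcapsular FACS arrays, 1.79, 1.76, 2.05, 1.49 and 1.28 on the medullary LCM arrays, and 2.63, 4.12, 3.01, 2.28 and 3.30 on the subcapsular LCM arrays. Both medullary groups lay wholly below both subcapsular groups. The median over the plasma cell members was -0.81 and 0.25 on the medullary FACS arrays, 1.48 and 1.68 on the subcapsular FACS arrays, -0.10, 0.27, 0.34, 0.54 and 1.32 on the medullary LCM arrays, and 1.39, -2.46, -0.26, 0.11 and -0.28 on the subcapsular LCM arrays. Subcapsular FACS arrays were the highest of all by this median, and the LCM sinuses overlapped. Plasma cell members also varied more between subcapsular LCM arrays, with a median SD of 2.79 against 1.05 for B cell members. The ranges of SD overlapped, at 0.54 to 3.65 and 0.25 to 3.98. Only 3 of 6 plasma cell members were well above background on every one of these arrays, against 20 of 25 B cell members. The part of signal height in this spread was not tested.

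**Figure D2:**
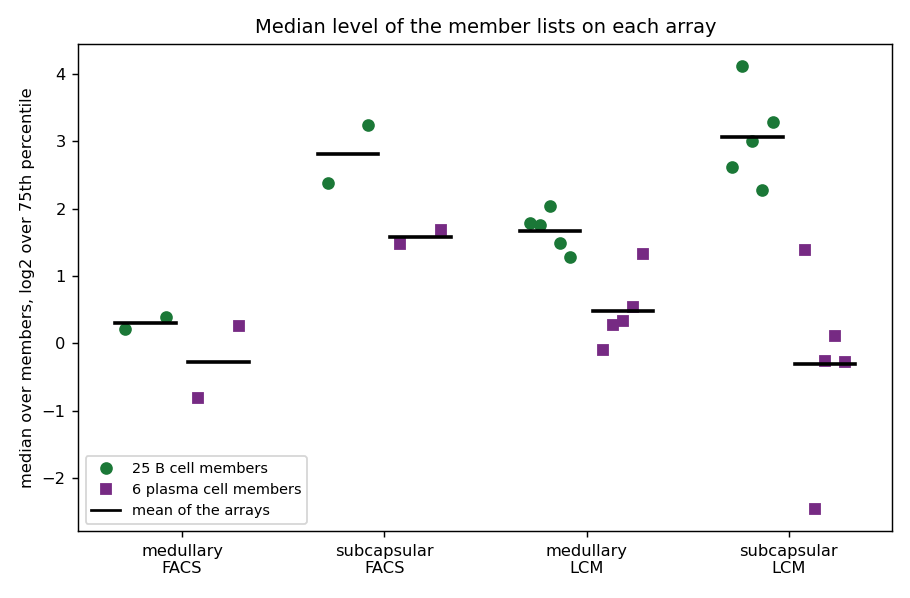
Points give, for each array, the median log2 level over the 25 B cell members (circles) and the 6 plasma cell members (squares), with a line at the mean of the arrays; heights of the lists against each other carry no meaning, since their probes differ. The B cell median is 0.22 to 0.39 in medullary FACS and 2.28 to 4.12 in subcapsular LCM samples, whereas the plasma cell median is 1.48 to 1.68 in subcapsular FACS samples and reaches down to -2.46 in subcapsular LCM samples.

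Among the defining B cell markers, Ms4a1, which encodes CD20, averaged -1.69 ± 0.91 in medullary FACS (SD, n = 2), 1.99 ± 0.43 in subcapsular FACS (n = 2), 0.12 ± 0.12 in medullary LCM (n = 5) and 2.06 ± 0.74 in subcapsular LCM cells (n = 5). The subcapsular groups differed by less than their spread, and medullary LCM lay between them and medullary FACS. Cd79a, a signalling chain of the B cell receptor, averaged 3.76 ± 0.32 in medullary FACS, 5.67 ± 0.50 in subcapsular FACS, 4.24 ± 0.36 in medullary LCM and 5.72 ± 0.65 in subcapsular LCM cells, in the same order. Its partner Cd79b averaged 4.88 ± 1.57, 6.12 ± 0.31, 5.25 ± 0.51 and 6.13 ± 0.58 in those groups, and neighbours in that order lay within 1 SD of each other except for the step between medullary LCM and subcapsular FACS.

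Among the defining plasma cell markers, Igj, the chain that joins the units of secreted IgM and IgA, averaged 0.05 ± 0.26 in medullary FACS, 3.72 ± 0.34 in subcapsular FACS, 1.29 ± 0.84 in medullary LCM and -1.96 ± 2.52 in subcapsular LCM cells. Its order was not that of the B cell markers, since the subcapsular sinus held both its highest and its lowest group. Mzb1, an endoplasmic reticulum protein that helps to assemble antibody, averaged -2.83 ± 1.52 in medullary FACS, 2.13 ± 0.15 in subcapsular FACS, -0.98 ± 2.35 in medullary LCM and 0.07 ± 3.07 in subcapsular LCM cells. Subcapsular FACS lay above both medullary groups, and subcapsular LCM ran from below to above all of them. Sdc1, which encodes the plasma cell surface protein CD138, averaged -0.61 ± 1.76 in medullary FACS, 0.24 ± 0.99 in subcapsular FACS, -1.15 ± 1.42 in medullary LCM and -3.29 ± 3.65 in subcapsular LCM cells, with overlap between all neighbours. The light chain gene Igkc, which is no member, was well above background on only 1 of 2 medullary FACS, 1 of 2 subcapsular FACS, 3 of 5 medullary LCM and 2 of 5 subcapsular LCM arrays.

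**Figure D3:**
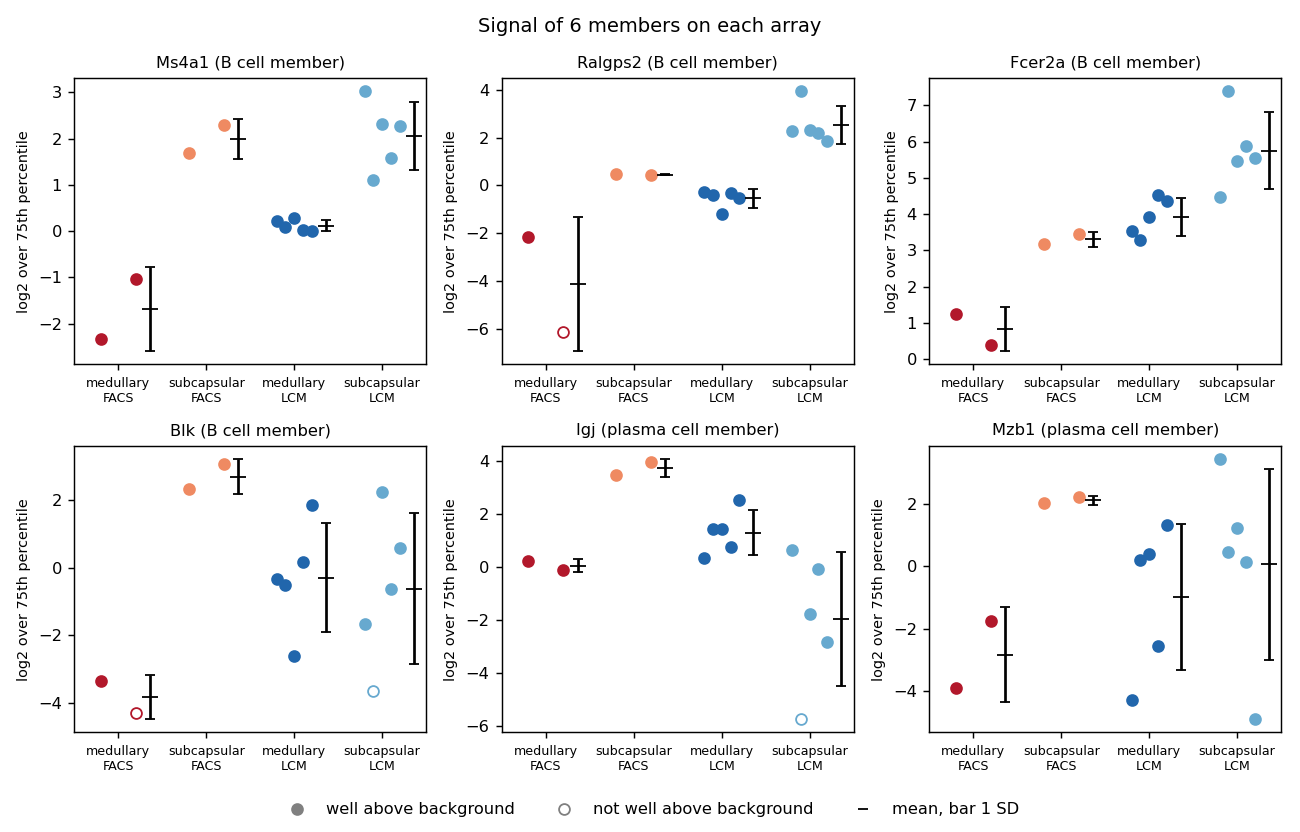
Each point is an array, filled where the probe was well above background; bars give the group mean and 1 SD on the log2 scale. Ms4a1, Ralgps2 and Fcer2a are lowest in medullary FACS and highest in subcapsular LCM samples, Blk separates only the FACS sinuses, Igj is highest in subcapsular FACS and lowest in subcapsular LCM samples, and Mzb1 overlaps between the LCM sinuses.

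The sinuses were first compared in LCM cells, over 27356 genes. B cell members were mostly lower in the medullary sinus, with 19 of 25 differences negative and a median difference of -1.18, against 47.4% negative and a median of 0.08 over all genes tested. In 9 B cell members every medullary array lay below every subcapsular array, and so did 2.06% of all genes: Ralgps2, Fcrla, Ms4a1, Bcl11a, Bank1, Cd79a, Fcmr, Btk and Ebf1. An unadjusted p under 0.05 with a negative difference was reached by 12 B cell members and by 4.81% of all genes. Such a p, in either direction, was reached by only 4 B cell members with quantile normalization, with the percentile over detected probes or with the authors' deposited table. The 6 plasma cell members had no common direction, with 3 negative, a median difference of 0.07 and no member whose groups were apart. No member of either class passed an adjusted p of 0.05 (limma, Benjamini-Hochberg over all genes), a threshold passed by 0.175% of all genes. With the percentile taken over probes above background, the median over all genes moved to 0.81, and 15 of 25 B cell and 1 of 6 plasma cell differences were then negative.

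Ralgps2, a guanine nucleotide exchange factor for Ral proteins, showed the clearest LCM difference. Its level was -0.27, -0.42, -1.21, -0.33 and -0.51 on the medullary LCM arrays and 2.29, 3.94, 2.32, 2.20 and 1.87 on the subcapsular LCM arrays. The groups were far apart, with a difference of -3.07 ± 0.52 (SE), that is 8.41-fold, and an adjusted p of 0.0535. It passed the threshold when subcapsular LCM replicate 2 or 5 was left out, and under 4 other settings, with adjusted p between 0.0199 and 0.262 over all settings. With the slide as a block the difference was -3.16 and the adjusted p 0.0793.

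Fcrla, an intracellular Fc receptor-like protein of B cells, read 1.92, 1.96, 2.05, 0.64 and 1.13 in medullary LCM and 3.50, 4.12, 3.60, 3.72 and 3.30 in subcapsular LCM samples. Its subcapsular values were close together and all higher, for a difference of -2.11 ± 0.47 and an adjusted p of 0.149. Ms4a1 read 0.22, 0.09, 0.28, 0.02 and -0.01 in medullary LCM and 3.02, 1.11, 2.32, 1.58 and 2.27 in subcapsular LCM samples. The medullary values were nearly equal and all lower, and the difference was -1.94 ± 0.48 with an adjusted p of 0.191. Bank1, an adaptor of B cell receptor signalling, read 2.84, 1.99, 2.74, -2.01 and 0.18 in medullary LCM and 3.35, 5.61, 4.11, 3.36 and 4.44 in subcapsular LCM samples. Medullary replicates 4 and 5, the pair on slide 2, were the low ones. The difference was -3.03 ± 0.96 with an adjusted p of 0.284, and on slide 1 alone it was -1.65. Bcl11a, a zinc finger factor needed in early B cells, read -0.81, -0.79, -1.53, -1.96 and -1.70 in medullary LCM and -0.49, 1.44, 0.68, 1.72 and -0.54 in subcapsular LCM samples. The groups just failed to touch, with a difference of -1.92 ± 0.60 and an adjusted p of 0.277, and the dimmer probes of Bcl11a did not share that sign, the next-brightest giving 1.64.

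The other B cell members differed less between the LCM sinuses; Btk, Fcmr and Pax5 are given by array, a choice made after their values were seen. Btk, a kinase needed for B cell development, read 3.17, 2.81, 2.20, 2.86 and 2.76 in medullary LCM and 3.51, 6.59, 4.73, 3.75 and 4.26 in subcapsular LCM samples. Fcmr, the Fc receptor for IgM, read 1.79, 2.03, 2.61, -0.25 and 2.91 in medullary LCM and 3.38, 3.88, 4.05, 3.70 and 3.63 in subcapsular LCM samples. For both genes each medullary value was lower, and the differences were -1.81 ± 0.63 for Btk and -1.91 ± 0.62 for Fcmr, with adjusted p of 0.323 and 0.301. Pax5, which maintains B cell identity, read 4.50, 4.22, 4.66, 5.69 and 5.37 in medullary LCM and 6.03, 8.01, 6.16, 5.63 and 5.57 in subcapsular LCM samples. The groups overlapped at their edges, with a difference of -1.39 ± 0.60 and an adjusted p of 0.409. The positive differences belonged to Vpreb3, Blk, Pou2af1, Cd72, Ly86 and Ikzf3, ran up to 0.59 for Cd72, an inhibitory coreceptor, and were each smaller than their SE.

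Igj had the largest difference among the plasma cell members and the opposite sign. Its level was 0.32, 1.43, 1.45, 0.75 and 2.53 in medullary LCM and 0.64, -5.75, -1.79, -0.09 and -2.82 in subcapsular LCM samples. Subcapsular replicate 1 lay inside the medullary range and replicate 2 was not well above background; the difference was 3.26 ± 1.10 with an adjusted p of 0.310. Sdc1 read -2.01, -1.88, -1.67, 1.37 and -1.57 in medullary LCM and -4.99, -5.60, -7.05, 0.07 and 1.14 in subcapsular LCM samples. It was above background on all 5 medullary arrays and on 2 of 5 subcapsular ones, and these 2 were higher than 4 of the medullary values. The difference was 2.14 ± 1.56 with an adjusted p of 0.637. Mzb1 read -4.29, 0.20, 0.39, -2.54 and 1.33 in medullary LCM and 3.44, 0.46, 1.24, 0.13 and -4.90 in subcapsular LCM samples. Each group ran over more than the other's middle values, and the difference was -1.06 ± 1.54 with an adjusted p of 0.830, becoming 0.089 once slide row was entered as a block.

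Other gene lists moved beside the B cell members in LCM cells. All 15 tested macrophage genes were negative, with a median of -2.30 and summed levels of 387 to 555 in medullary LCM against 650 to 2475 in subcapsular LCM samples, and 13 of 15 housekeeping genes were negative, with a median of -0.88. T cell genes ran the other way, with 13 of 17 positive and a median of 0.94. Among genes of high endothelial venules, the vessels through which lymphocytes enter the node, Fut7, Ackr1 and Chst4 were higher in medullary LCM cells by 6.76 ± 0.64, 5.44 ± 0.65 and 4.47 ± 0.73, with adjusted p of 0.00385, 0.0163 and 0.0471. The part of these lists in the B cell result was not tested.

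In FACS cells the sinus difference was wider and took in both classes. Over 27639 genes, 24 of 25 B cell members and 5 of 6 plasma cell members were lower in the medullary sinus, with median differences of -2.35 and -2.39. Over all genes 40.5% were negative and the median was 0.73. Blk, Fcrl1, Vpreb3, Bcl11a, Ralgps2, Btk and Xbp1 were well above background on both subcapsular but not on both medullary arrays. They were tested only through the sinus where they were high, which made a negative sign likely, and are counted among the negative members here. Both medullary arrays lay below both subcapsular arrays for 19 B cell and 4 plasma cell members, as for 26.7% of all genes; the exceptions were Fcmr, Cd79b, Pou2af1, Cr2, Pou2f2, Blnk, Sdc1 and Prdm1. An unadjusted p under 0.05 with a negative difference was reached by 13 B cell and 3 plasma cell members and by 13.7% of all genes. Without subcapsular FACS replicate 6 or 7, 4 B cell members had such a p in either direction. All 13 B cell members whose use is largely restricted to B cells were negative, with a median of -3.19, and 11 of the 12 that other node cells also use, with a median of -2.14. No gene of either class, and no gene at all, passed an adjusted p of 0.05 with limma on these 4 arrays, so that the called share was 0%. With 2 arrays a group an exact permutation test cannot go below a two-sided p of 0.33. In this isolation the sinuses also took different rows of the slide, and sinus and row cannot be told apart.

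Blk, a Src family kinase of the B cell receptor pathway, read -3.37 and -4.30 in medullary FACS and 2.33 and 3.06 in subcapsular FACS cells. The lower medullary value was not well above background. The difference was -6.53 ± 0.69 with an adjusted p of 0.0647, its medullary side resting on 1 measured array. In LCM cells the same probe read -0.34, -0.52, -2.63, 0.16 and 1.85 in the medullary and -1.68, -3.67, 2.23, -0.62 and 0.60 in the subcapsular sinus, and there the sinuses overlapped throughout, with a difference of 0.33 ± 1.13. Fcrl1, a B cell surface receptor of the Fc receptor-like family, was not well above background on either medullary FACS array and read -0.22 and 0.28 on the subcapsular ones. It was at least 24.3-fold lower in medullary FACS cells, a bound set by the dimmest probes above background, with an adjusted p of 0.0647. Vpreb3, which assists receptor assembly in developing B cells, read -3.68 and -4.68 in medullary FACS and -0.61 and -1.38 in subcapsular FACS cells. Both of its medullary values were lower, the second of them not well above background, and the difference was -3.19 ± 0.71 with an adjusted p of 0.102.

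Ms4a1 read -2.33 and -1.04 in medullary FACS and 1.68 and 2.29 in subcapsular FACS cells. Its difference of -3.67 ± 0.75 had an adjusted p of 0.0943. Bcl11a read -4.84 and -3.60 in medullary FACS and -0.12 and -0.45 in subcapsular FACS cells, for a difference of -3.93 ± 0.71 and an adjusted p of 0.0866. The value of -4.84 was not well above background. The next-brightest probe of Bcl11a again pointed the other way, with a difference of 3.08. Of the 9 members with several probes, the signs of the brightest and next-brightest probe were the same for 6 in FACS cells and for 8 in LCM cells.

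The plasma cell members with the lowest p in FACS cells were Igj, Mzb1 and Irf4. Igj read 0.23 and -0.13 in medullary FACS and 3.48 and 3.96 in subcapsular FACS cells, for a difference of -3.67 ± 0.59 and an adjusted p of 0.0762. This sign was the reverse of that in LCM cells. Mzb1 read -3.90 and -1.75 in medullary FACS and 2.02 and 2.23 in subcapsular FACS cells, with a difference of -4.95 ± 0.94 and an adjusted p of 0.0891. Irf4, a transcription factor that rises with plasma cell differentiation, read 2.23 and 3.04 in medullary FACS and 4.26 and 4.56 in subcapsular FACS cells, and its groups, though apart, differed by -1.77 ± 0.63 with an adjusted p of 0.155. Prdm1, which encodes the plasma cell regulator Blimp-1, was the single plasma cell member with a positive difference, of 0.21 ± 0.65.

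**Figure D4:**
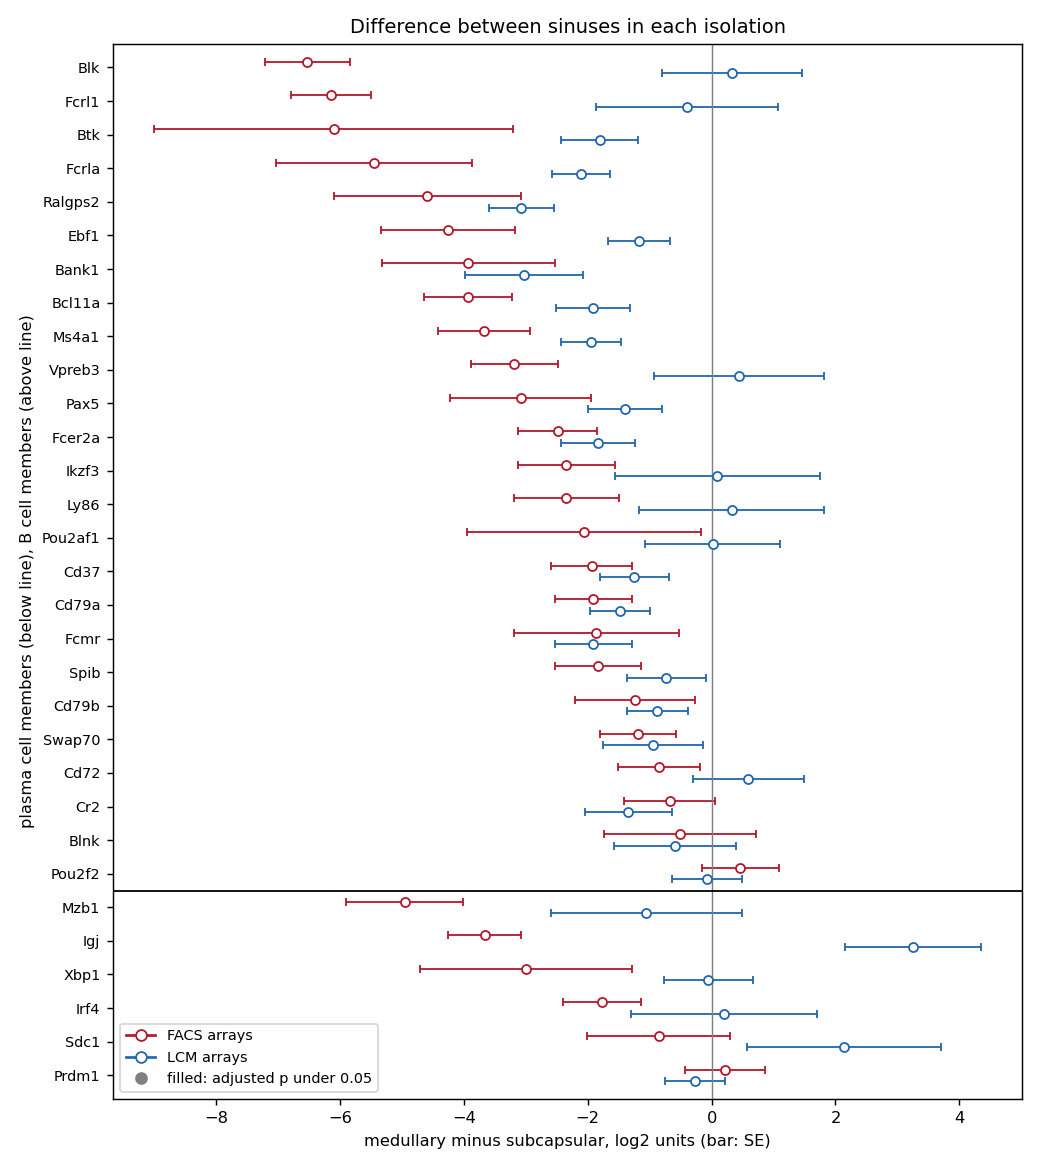
Points give the medullary minus subcapsular difference of each member in log2 units and bars 1 SE, red for FACS and blue for LCM arrays, with B cell members above the line and plasma cell members below it; no point is filled because none passed an adjusted p of 0.05. FACS differences reach -6.53 for Blk, the FACS point of Fcrl1 rests on medullary values not above background, and Igj lies at -3.67 in FACS against 3.26 in LCM arrays.

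Several other lists were mostly negative between the sorted sinuses, and others were not. Stromal genes of follicular dendritic and marginal reticular cells were negative in 3 of 7 cases, with a median of 0.13. Genes of blood endothelium were negative in 4 of 9 cases and those of lymphatic endothelium in 4 of 8, with medians of 0.17 and -0.53. Single genes still differed widely, from -4.29 to 1.21 in the stromal, -5.55 to 1.52 in the blood and -8.22 to 4.33 in the lymphatic list. The ends of the last were Pecam1, at -8.22 ± 0.74 (adjusted p 0.0647), and Pdpn, at 4.33 ± 0.74 (adjusted p 0.0819). Among blood endothelial genes Plvap had the lowest p, at -5.02 ± 0.93 (adjusted p 0.0875). Of the secretory machinery that plasma cells use heavily, 12 of 13 tested genes were negative, with a median of -3.87, the lowest p belonging to Ssr4, a translocon component, at -7.04 ± 0.60 and Dnajb9, a chaperone of the endoplasmic reticulum, at -5.98 ± 0.68 (adjusted p 0.0647 for each). Of genes in B cell receptor signalling, 17 of 18 were negative, with a median of -3.42, led by Dapp1 at -5.94 ± 0.58 and Nfatc1 at -6.56 ± 0.75. Of the 19 immunoglobulin and early B cell genes listed, 6 were measured and only 3 were tested in FACS cells, Igkc not among them. These 3 were positive, with a median of 1.57. They were led by Vpreb1, part of the surrogate light chain of B cell precursors, at 4.01 ± 0.81 (adjusted p 0.0942). In LCM cells 5 of 5 tested were positive, with a median of 1.31. T cell genes were negative in 13 of 17 cases, with a median of -1.72, and housekeeping genes in 14 of 15, with a median of -1.67. Ptprc, whose product carries the sorted CD45R/B220 epitope, averaged 0.37 ± 0.98 in medullary FACS and 3.76 ± 0.23 in subcapsular FACS cells, and Nt5e, which encodes the sorted CD73, was not well above background on either medullary FACS array and read 1.80 and 2.03 on the subcapsular ones. Their part in the result was not tested.

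Whether the sinus difference depended on the isolation was tested as an interaction, the medullary minus subcapsular difference in FACS cells minus the same difference in LCM cells, over 29657 genes. It was negative for 21 of 25 B cell members, with a median of -1.52, and for 5 of 6 plasma cell members, with a median of -2.97, against 42.3% and a median of 0.52 over all genes. No member passed an adjusted p of 0.05, which 1.29% of all genes did. Igj came nearest, at -6.92 ± 1.62 with an adjusted p of 0.0545. Leaving out subcapsular LCM replicate 1, 2 or 4 brought it past the threshold. Blk followed at -6.86 ± 1.69 with an adjusted p of 0.0638, and passed it without subcapsular LCM replicate 3.

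Ebf1, a factor that commits progenitors to the B cell lineage, read 0.24 and -2.32 in medullary FACS, 2.95 and 3.49 in subcapsular FACS, 2.21, 2.73, 2.36, 2.51 and 1.31 in medullary LCM and 2.96, 3.08, 3.06, 4.38 and 3.54 in subcapsular LCM samples. Medullary values were the lower ones in both isolations, and the FACS gap exceeded the LCM gap by -3.08 ± 1.00 (adjusted p 0.123). Without medullary FACS replicate 7 that value was -1.80, and without replicate 6 it was -4.36, with a single medullary FACS array left in each fit. Fcrla read 0.22 and -3.86 in medullary FACS and 3.21 and 4.06 in subcapsular FACS cells, and its interaction was -3.35 ± 1.27 (adjusted p 0.169). The subcapsular level was alike in both isolations, and medullary FACS replicate 7 was by far the lowest array. Without that replicate the value was -1.30, and without replicate 6 it was -5.39. Ms4a1 had an interaction of -1.73 ± 0.81 (adjusted p 0.239), and Fcrl1, not above background on either medullary FACS array, is given none.

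Xbp1, the factor that expands the secretory apparatus of plasma cells, read -4.79 and -0.24 in medullary FACS, 0.68 and 0.29 in subcapsular FACS, -0.15, 0.05, -0.79, 1.02 and 0.94 in medullary LCM and 1.75, 1.50, -1.29, 0.21 and -0.82 in subcapsular LCM samples. Only medullary FACS replicate 6, not well above background, stood outside the others. The interaction of Xbp1 was -2.95 ± 1.57 (adjusted p 0.289). It was -0.67 without that array, and -5.22 without replicate 7, when only the value not well above background stood for medullary FACS. The interaction of Mzb1 was -3.90 ± 2.33 (adjusted p 0.340). Of the other lists, the B cell receptor signalling gene Nfatc1, the chaperone Dnajb9 and the T cell factor Tcf7 passed the test, at -6.08 ± 0.89, -5.74 ± 1.21 and -5.45 ± 1.16, with adjusted p of 0.00826, 0.0410 and 0.0424, as did the endothelial genes Pecam1, Ackr1 and Plvap.

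The isolations were then compared over both sinuses. Fcer2a, Ralgps2 and Bcl11a were lower in FACS than in LCM cells, which makes 3 of 25 B cell members called lower where 2.04% of all 29657 genes were, and no plasma cell member was called in either direction, where 3.86% of all genes were. The B cell members had 18 of 25 negative differences and a median of -0.56, and the plasma cell members 1 of 6, that of Xbp1, and a median of 1.11; over all genes 42.7% were negative and the median was 0.17. In both sinuses the isolations differed in cell number and node sites, and in the subcapsular sinus isolation and slide cannot be told apart.

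Fcer2a, which encodes the low-affinity IgE receptor CD23 of follicular B cells, read 1.25 and 0.39 in medullary FACS and 3.16 and 3.45 in subcapsular FACS cells, against 3.52, 3.27, 3.92, 4.54 and 4.35 in medullary LCM and 4.47, 7.38, 5.47, 5.88 and 5.55 in subcapsular LCM cells. Within each sinus every FACS array lay below every LCM array. It fell by 2.77 ± 0.46 on the log2 scale, or 6.82-fold, with an adjusted p of 0.00459. The call held in all 14 fits that left out a single array, with adjusted p up to 0.0357, but not on slide 2 alone, where the medullary difference was -3.62 with an adjusted p of 0.160. On that slide no gene of any kind was called.

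Ralgps2 read -2.16 and -6.13 in medullary FACS and 0.46 and 0.43 in subcapsular FACS cells, the lowest value being not well above background, and its LCM values are given above. Within each sinus the FACS arrays were again the lower ones. It fell by 2.84 ± 0.64 with an adjusted p of 0.0253. The call ended without subcapsular FACS replicate 6 or 7, at adjusted p of 0.0949 and 0.0941, and without medullary FACS replicate 7 the value was -1.84. Bcl11a fell by 1.86 ± 0.48 with an adjusted p of 0.0485. It was well above background on only 1 of 2 medullary FACS arrays. FACS arrays were all lower in the medullary sinus and overlapped with LCM arrays in the subcapsular sinus. Its call ended in 11 of the 14 fits without a single array, with adjusted p of 0.0307 to 0.204, and the next-brightest probe gave 0.68.

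Ebf1 and Bank1 were next among the B cell members, at -1.72 ± 0.50 and -2.54 ± 0.84 with adjusted p of 0.0837 and 0.134. The probe mattered for Bank1 and Btk. In limma fits over all probes, their next-brightest probes gave -4.26 and -2.02, with adjusted p of 0.0059 and 0.0332. The brightest probes gave adjusted p of 0.142 and 0.365 there. Of the 9 members with several probes, 6 had the same sign with each. Bank1 read -0.14 and -3.54 in medullary FACS and 1.47 and 2.72 in subcapsular FACS cells, and 1 medullary LCM value, -2.01, lay between those of the medullary FACS arrays. Among the plasma cell members Igj, Irf4 and Sdc1 had positive differences of 2.22 ± 0.81, 2.80 ± 1.11 and 2.03 ± 1.20, with adjusted p of 0.179, 0.224 and 0.456. Irf4 read 1.18, 1.19, 0.88, -1.55 and 2.42 in medullary LCM and 3.27, -5.38, 2.57, 0.97 and 1.70 in subcapsular LCM samples, so that both subcapsular FACS values topped every LCM value. Sdc1 read -1.86 and 0.63 in medullary FACS and 0.94 and -0.46 in subcapsular FACS cells, inside its LCM range. On slide 2 alone, in medullary cells, the differences of Igj and Sdc1 were -1.58 and -0.51, and over all medullary arrays they were -1.24 and 0.54.

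Taken by sinus, in the same fit, the classes parted. In the medullary sinus 22 of 25 B cell members were lower in FACS cells, with a median of -1.47, against 39.1% and a median of 0.47 over all genes. Fcer2a, Ebf1, Bcl11a, Ralgps2 and Fcrla fell there, with differences of -3.10 ± 0.65, -3.26 ± 0.71, -2.86 ± 0.67, -3.59 ± 0.90 and -3.36 ± 0.90 and adjusted p of 0.0142, 0.0166, 0.0248, 0.0333 and 0.0439, where 3.27% of all genes were called lower. Bcl11a and Ralgps2 were well above background on only 1 of 2 medullary FACS arrays. In 10 B cell members both medullary FACS arrays lay below all 5 medullary LCM arrays, as for 10.4% of all genes. Leaving out single arrays ended these calls in 1, 1, 4, 7 and 12 of 14 fits in that order. The sizes moved too: without medullary FACS replicate 7 the difference was -1.98 for Ebf1, -1.61 for Ralgps2 and -1.32 for Fcrla. Fcer2a and Ebf1 lost theirs without medullary FACS replicate 7, at adjusted p of 0.0686 and 0.110. The 6 plasma cell members had 3 negative differences there and a median of -0.40.

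In the subcapsular sinus the B cell members were spread around the same level in both isolations, with 16 of 25 negative against 53.7% of all genes, a median of -0.03 and no call. Bank1, Fcer2a and Ralgps2 were lower on both FACS arrays than on all 5 LCM arrays, as were 8.87% of all genes, and Blk, Irf4 and Igj were higher on both, as were 6.07%. Plasma cell members were mostly higher in FACS cells, with 5 of 6 positive and a median of 2.79, against a median of -0.13 over all genes. Igj rose there by 5.68 ± 1.15, or 51.3-fold, with an adjusted p of 0.0327, where 0.664% of all genes were called higher. Its 2 FACS values, 3.48 and 3.96, lay above all 5 LCM values, of which the highest was 0.64. The lowest LCM value, -5.75, was not well above background, so the fold is approximate. The call ended in 4 of 14 fits without a single array, those without subcapsular FACS replicate 6 or 7 or subcapsular LCM replicate 3 or 5, with adjusted p of 0.0168 to 0.376 over all 14. Irf4 and Sdc1 differed by 3.78 ± 1.57 and 3.52 ± 1.70, with adjusted p of 0.351 and 0.442. They were well above background on 4 of 5 and 2 of 5 subcapsular LCM arrays.

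**Figure D5:**
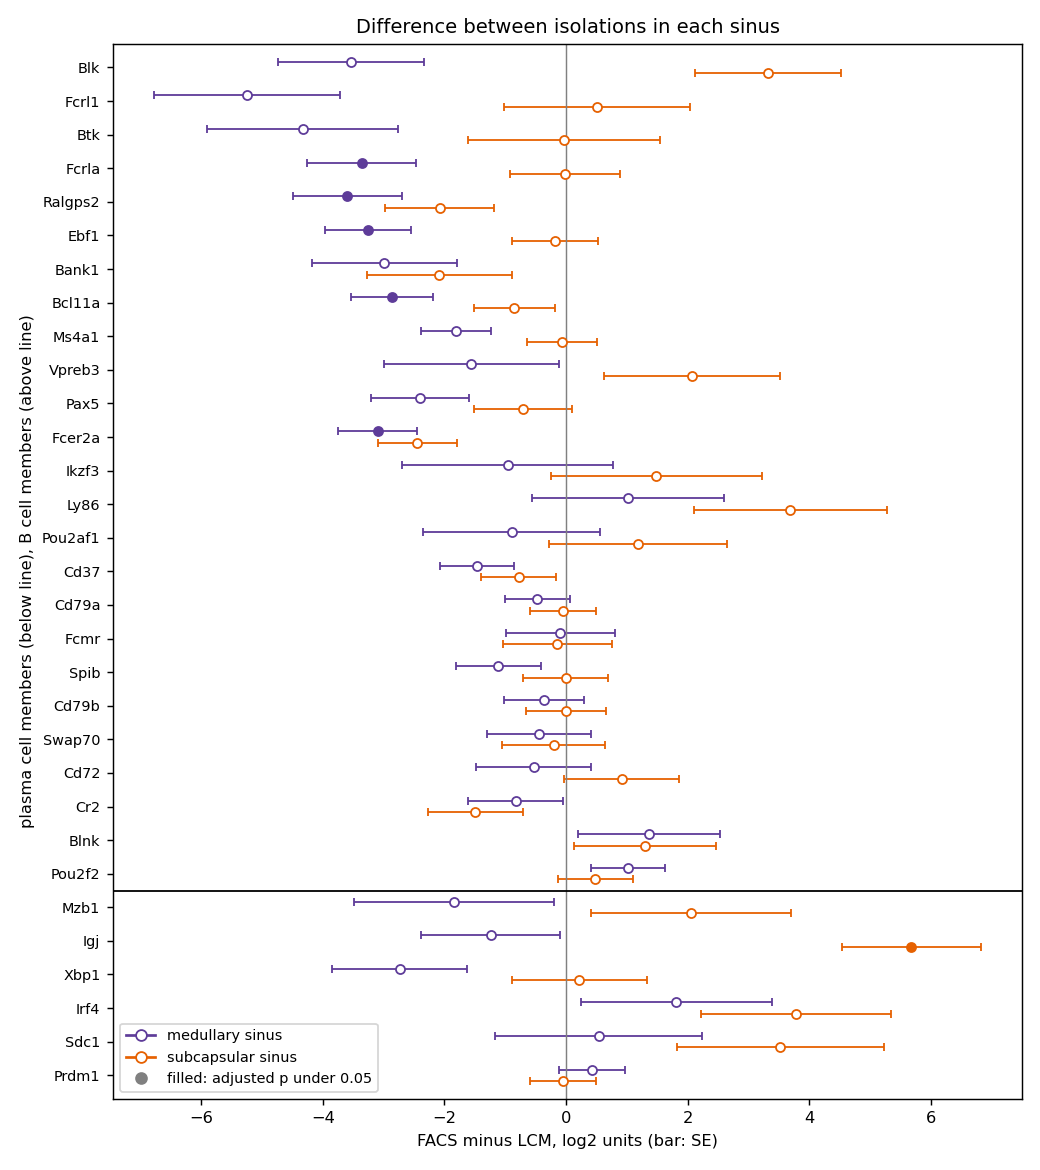
Points give the FACS minus LCM difference of each member in log2 units and bars 1 SE, purple for the medullary and orange for the subcapsular sinus, filled where the adjusted p was under 0.05. The medullary points of Fcer2a, Ebf1, Bcl11a, Ralgps2 and Fcrla are filled at -3.59 to -2.86, the medullary point of Fcrl1 rests on FACS values not above background, and the subcapsular point of Igj is filled at 5.68.

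Other genes of the B cell and plasma cell pathways gave a mixed picture between isolations. Of the ligands, receptors and chemokines for B cell survival and homing, Cxcl13, the follicular chemokine that draws B cells, and Cxcl12 were lower in FACS cells, with differences of -6.51 ± 1.17 and -2.91 ± 0.64, and Ccr7, a receptor that guides lymphocytes to the T cell zone, was higher by 2.82 ± 0.70, with adjusted p of 0.00702, 0.0235 and 0.0412. Of 7 tested germinal centre genes all were positive, with a median of 1.42. In B cell receptor signalling 15 of 18 genes were negative and Dapp1, an adaptor of that pathway, fell by 3.03 ± 0.68 (adjusted p 0.0252); in the secretory machinery 8 of 13 were negative and Pdia4, a disulfide isomerase, fell by 2.60 ± 0.63 (adjusted p 0.0382). Of 7 tested genes of follicular dendritic and marginal reticular cells, the stroma of follicles and of the zone beneath the subcapsular sinus, all were negative, with a median of -2.75, and Clu and Enpp2 were called with Cxcl13, at -2.78 and -4.39. Their summed level ran from 8.98 to 22.1 in medullary FACS and from 21.7 to 42.9 in subcapsular FACS samples, against 89.6 to 160 in medullary LCM and 173 to 487 in subcapsular LCM samples. Genes of other cell types called lower were the macrophage genes Timd4, Lyz2, Lyz1 and C1qa, the endothelial genes Pecam1, Cdh5 and Plvap, and B2m, with differences of -5.27 to -2.63, and the dendritic cell gene Itgax was called higher at 2.67. In the medullary sinus alone, the B cell receptor signalling genes Nfatc1, Dapp1, Siglecg and Bcl10 and the secretory genes Pdia4, Dnajb9 and Ssr4 were called lower in FACS cells, with differences of -6.16 to -3.22, and Vpreb1 was called higher at 3.31 ± 0.85 (adjusted p 0.0365). The part of these lists in the members' differences was not tested.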

How the data were processed

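Each sample was hybridised to 1 one-colour Agilent array. Per the file headers, the authors' spot intensities were extracted with Agilent Feature Extraction 10.7.3.1, background-subtracted and not scaled between arrays; probe positions are on mm9. Members and gene lists were chosen with earlier results of these data known. Control spots and outlier-flagged spots were left out, repeated spots averaged, and log2 intensity minus each array's 75th percentile was used. Where several probes carried a gene's name, the brightest on average stood for it. A gene was tested if well above background on 3 of 5 LCM arrays, or both FACS arrays, of a sinus. Groups followed the labels. limma 3.58.1 in R 4.3.3 (lmFit, eBayes) was fitted over all genes with Benjamini-Hochberg adjustment; LCM and FACS arrays were fitted apart for the sinuses and together, as 4 group means with weights by isolation, for isolation and interaction. Weights were 0.874 for LCM and 1.40 for FACS arrays. The fits were tested on simulated data.

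The authors' deposited table of log2 values, whose scaling is not given in the sources used here, served as an alternative, as did other background corrections, scalings, filters, probes and blocks. Per-array values and fits were given for the members called and, up to 5 B cell and 3 plasma cell genes, those with the lowest p; defining markers were given in all 4 groups; of other lists, genes called or the 2 with the lowest p. 1 gene of the other lists is not reported here. Array number limits the precision.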

Additional observations from a re-analysis of the deposited data

Results flagged for a closer look

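Among 62 sets of 5 LCM arrays, 1 for each member and sinus, 8 held an array further from the others than Dixon's 95% limit allows, where chance gives about 1 in 20. Medullary LCM cells held 5 of them. Pou2af1, a coactivator of octamer factors, had its lowest value at replicate 4, -0.32. Ralgps2 had its lowest at replicate 3, -1.21, and Swap70, a signalling protein of activated B cells, its lowest at replicate 1, 2.87. Prdm1 had its highest at replicate 5, 1.32, and Sdc1 its highest at replicate 4, 1.37. Subcapsular LCM replicate 2 accounted for the other 3: Pax5, the factor that maintains B cell identity, was highest there at 8.01 and Ralgps2 at 3.94, while Irf4 was lowest at -5.38 and not well above background. That array had the fewest probes well above background of all 14, 50.8%, the highest B cell median, 4.12, and the lowest plasma cell median, -2.46.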

How the results depend on the processing

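In LCM cells 1 member, Ralgps2, passed the threshold with quantile normalization, when the percentile was taken over detected probes, with the authors' deposited table and with a stricter filter, and the B cell median was -0.58, -0.45 and -0.60 under the first 3. In FACS cells 3 members (Blk, Fcrl1 and Igj) passed with a trended, robust variance model, and 11, all B cell members, with all 14 arrays in 1 fit; over all genes these fits called 793 higher and 1006 lower, and 2615 higher and 1870 lower. Between isolations, slide 2 holds both isolations only for medullary cells; it gave 0 members called, a B cell median of -1.64 and a plasma cell median of -1.05, where all medullary arrays gave -1.47 and -0.40. In the interaction 1 member passed: Igj with normexp or a stricter filter, Blk with quantile normalization or the deposited table. Reversed values were those of Bcl11a in LCM cells with its next-brightest probe (1.64; chosen after seeing the data), in FACS cells with the mean of its probes (1.01) and the next-brightest (3.08), and between isolations with the same 2 (0.12 and 0.68); of Mzb1 in LCM cells with slide row as a block (0.089); and of Igj and Sdc1 between isolations on slide 2 (-1.58 and -0.51), where Igj was already negative over all medullary arrays (-1.24) and Sdc1 was not (0.54). The cause was not tested, beyond the single sinus and fewer arrays on slide 2 and the other probes used.

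Without single arrays, members called ran from 0 to 1 in LCM cells, were 0 in FACS cells (0 to 0), and ran from 1 to 6 between isolations and from 0 to 4 in the interaction. The B cell median ran from -1.33 to -0.96 in LCM cells, from -2.80 to -1.77 in FACS cells and from -0.96 to -0.31 between isolations, and the plasma cell median from -0.22 to 0.59, from -2.83 to -1.05 and from 0.76 to 1.38. The fewest calls between isolations came without subcapsular FACS replicate 6 or 7 and the most without medullary FACS replicate 7; the most in the interaction came without medullary FACS replicate 6. Scaling moved the median difference over all genes to between -0.16 and 0.81 in LCM cells (0.08 in the report), 0.43 and 0.84 in FACS cells (0.73), -0.02 and 0.40 between isolations (0.17) and -0.10 and 0.72 in the interaction (0.52). Over all genes, LCM calls were 46 higher and 2 lower, against 6 and 2 with normexp, 10 and 5 with quantile normalization, 220 and 9 with that percentile, 11 and 5 with the deposited table, 89 and 15 with the stricter filter, 126 and 1 with the slide as a block, 242 and 6 on slide 1, and 13 and 1 with the row as a block. Interaction calls were 164 higher and 219 lower, against 379 and 303 with normexp, 525 and 626 with quantile normalization, 108 and 359 with that percentile, 514 and 621 with the deposited table, 108 and 147 without a filter, 269 and 307 with the stricter filter and 36 and 71 without weights. Isolation calls were 539 higher and 606 lower, against 801 and 560 with that percentile and 313 and 435 without weights. With the replicate number as a block, 0 members were called in LCM and 0 in FACS cells, and 0 genes in all. Deviations of same-numbered samples correlated at -0.019 to 0.005 in LCM and -0.011 in FACS cells. With 2 FACS arrays a group the deviations mirror each other, so both numbers there give 1 value. The correlations showed no sign of pairing but cannot exclude it, since other spread between arrays can hide it. Of the members' own values, 644 kept side and direction, 31 newly passed, 21 no longer passed and 8 reversed.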
